A study of Mus musculus with 5 samples.

Results

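The genes described here are the cytosolic ribosomal protein genes, which encode the proteins of the 80S ribosome outside the mitochondria. They were chosen by name: gene symbols made of Rpl or Rps and a number, with an optional a, x, y or l ending, together with Rplp0, Rplp1, Rplp2 and Rpsa. Of 84 symbols that matched, Rpl6l was left out as a processed pseudogene, which left 83 genes of the 27998 in each count table. Of these, 51 encode proteins of the large subunit and 32 of the small subunit. Fau, which encodes a small subunit protein fused to a ubiquitin-like protein, does not match the name pattern and was read only as another gene. The rule reads names, not measured values, and it was set with earlier results of these data known.

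The data are droplet single-cell RNA-seq counts from the kidneys of C57BL/6j mice given pristane, a hydrocarbon oil that induces a lupus-like disease. All mice carried this treatment, so no mouse without pristane is compared. Saline was given to 2 of the mice (saline 1 and 2), and fecal microbiota transplantation (FMT) from MRL/MpJ mice to the other 3 (FMT 1 to 3), and each library is taken as 1 mouse, as the design text counts them. Age, sex, dose and time of transplantation are not given in the sources used here. The labels name renal tubular epithelial cells, and the protocol also names B cells, whereas the tables hold the immune cells described below too.

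A ribosome holds 1 copy of most of these proteins, and the cell makes them in step with ribosomal RNA. Their mRNAs are among the most abundant and long-lived in a cell. Most start with a terminal oligopyrimidine (TOP) tract, a C followed by a run of C and U, through which the kinase mTORC1 and the RNA-binding protein Larp1 control their translation. In lymphocytes, ribosome production rises when a resting cell is activated to divide. Mature neutrophils, by contrast, are short-lived cells with little protein synthesis.

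The 5 libraries held 15333445 to 45309178 unique molecular identifiers (UMIs, each a counted RNA molecule) in 3426 to 7003 barcodes. Of 26237 barcodes, 22591 had at least 200 genes and under 50% mitochondrial UMIs, and the members took 16.5% to 20.3% of non-mitochondrial UMIs in these cells. Cells were then placed in 8 gates, each by at least 2 UMIs of its own marker and at most 1 UMI of every other gate's marker. The gates held 972 cells for Ms4a1 (B cells), 993 for Cd3e (T cells), 433 for Ear2 (nonclassical monocytes), 416 for S100a8 (neutrophils), 104 for Jchain (plasma cells), 12161 for Miox (proximal tubule), 784 for Slc12a3 (distal convoluted tubule) and 781 for Atp6v1g3 (intercalated cells of the collecting duct). Libraries shared 3 to 12 barcodes pairwise. No pair of libraries of a group agreed within sampling noise, since the chi-square per gene was at least 67.4.

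The summed level of each gate's marker list, its gating gene left out, was highest in its own gate in all 8 cases. B cell markers came to 2828 to 5575 CPM (UMIs per 1000000 non-mitochondrial UMIs of the gate's sum) in the Jchain gate, against 9835 to 12384 in the Ms4a1 gate. In the Atp6v1g3 gate they came to 91.1 to 1689 CPM, against 1324 to 2979 for that gate's own markers. Thick ascending limb markers came to 1858 to 5013 CPM in the Slc12a3 gate, lower in all 3 FMT libraries than in both saline libraries. Red cell markers varied by library, from 0 to 14089 in the S100a8 gate and from 5.61 to 8098 in the Ms4a1 gate, both highest in saline 1. They ranged further in the Ear2 gate, from 18.9 to 93454, and in the Jchain gate, from 13.9 to 23208, libraries with under 20 cells included. The part of these in the shares below was not tested. Immunoglobulin genes are missing from the gene list (0 found), so shares in plasma cells are of the remaining RNA. A sum of 1 gate in 1 library entered a fit with at least 20 cells, which left 37 sums. The Jchain gate of saline 1 (19 cells) and FMT 3 (14 cells) and the Ear2 gate of FMT 3 (12 cells) did not enter.

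The TOP tract is the sequence these mRNAs are known to share, so the bases around annotated starts are shown for members that return below. Start regions were found for 63 of the 83 members in RefSeq's table for GRCm38.p6. Each line gives 10 bases before the start and 20 from it, 5′ to 3′ on the gene's strand, and capitals mark the pyrimidine run that begins at the start. Rps27, Rps6, Rpl38 and Rplp2 have such a run. Rps27l, the paralog of Rps27, and Rps9 have none at the annotated base.
Rps27, chr3:90213629-90213658, minus strand: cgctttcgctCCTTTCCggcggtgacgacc
Rps27l, chr9:66946076-66946105, plus strand: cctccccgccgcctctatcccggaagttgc
Rps6, chr4:86857348-86857377, minus strand: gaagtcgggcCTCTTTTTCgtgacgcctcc
Rpl38, chr11:114668570-114668599, plus strand: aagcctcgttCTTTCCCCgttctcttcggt
Rplp2, chr7:141447641-141447670, plus strand: cagcgtcttcCTTTCgccgccggacgccgc
Rps9, chr7:3704031-3704060, plus strand: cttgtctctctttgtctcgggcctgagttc
A C followed by 4 bases that are each C or T stood exactly at the start in 13 of the 63 members (20.6%), against 3.01% of the 27025 genes in the table. An annotated start can lie several bases from the one a cell uses, so a line without capitals says only that these letters are not at that base. In the 300-base windows (250 before the start and 50 from it, both strands), CCGGAAG, the core bound by GABP and other ETS factors, was found in 26 of 63 members (41.3%) and 9.93% of genes. AAGATGG, a YY1 core, was found in 10 of 63 members (15.9%) and 7.28% of genes. These are letter matches, not binding sites.

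Ribosomal protein mRNA took the largest part of the transcriptome in lymphocytes and the smallest in distal convoluted tubule and neutrophils. The share is given as percent of non-mitochondrial UMIs summed over the gate's cells. In the Ms4a1 gate it was 37.1% and 36.9% in saline 1 and 2, and 35.4%, 35.9% and 36.6% in FMT 1 to 3. In the Cd3e gate it was 36.2% and 39.0% in saline and 39.2%, 38.1% and 38.2% in FMT. Both lymphocyte gates lay above every other gate in all 5 mice.

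The Ear2 gate was at 23.6% and 21.4% in saline 1 and 2 and 19.98% and 17.8% in FMT 1 and 2. The Jchain gate had 21.7% in saline 2 and 22.2% and 22.5% in FMT 1 and 2. In each of those 3 mice the Jchain gate was above the Ear2 gate, by as little as 21.7% against 21.4% in saline 2, and the Ear2 gate of saline 1 lay above all 3 Jchain values. The Miox gate had 16.0% and 12.1% in saline and 12.9%, 13.1% and 14.5% in FMT.

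The Atp6v1g3 gate had 21.4% and 15.4% in saline and 12.8%, 14.98% and 14.4% in FMT, a range that overlaps the Miox gate. The S100a8 gate had 10.1% and 8.52% in saline and 8.501%, 4.09% and 5.69% in FMT. The Slc12a3 gate had 6.91% and 6.94% in saline and 6.76%, 7.03% and 8.68% in FMT. Neutrophils and distal convoluted tubule cells exchanged places between mice, so their order is not resolved by the sums. The 95% Wilson interval of a share had a half-width of 0.012 to 0.215 percentage points, which covers counting error only.

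**Figure D1:**
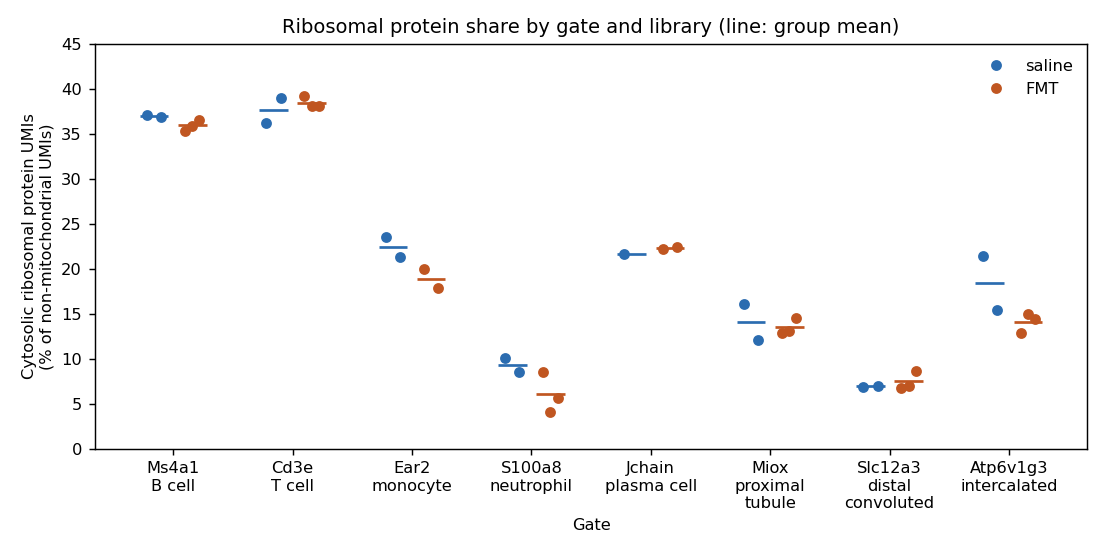
Share of non-mitochondrial UMIs from the 83 cytosolic ribosomal protein genes (vertical axis, percent) in 8 gates (horizontal axis), 1 point per library, lines at group means. The Ms4a1 and Cd3e points lie between 35.4% and 39.2%, and the Slc12a3 points between 6.76% and 8.68%.

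Sums weigh cells with many UMIs most, so the median cell was read too. In the S100a8 gate the median cell had 5.69% and 4.89% in saline and 4.301%, 3.96% and 3.94% in FMT, lower than the sums in every library. By medians the S100a8 gate was below the Slc12a3 gate in all 5 mice, where the median cell had 6.31% to 7.69%. In absolute counts, the median cell carried 1285 to 1941 member UMIs in the Cd3e gate, 949 to 1292 in the Ms4a1 gate and 518.5 to 728 in the Miox gate. The median Slc12a3 cell carried 267 to 416 member UMIs, and the median S100a8 cell 101 to 145. The Miox cells had more UMIs in all (medians of 4099 to 5838 non-mitochondrial UMIs) than the Ms4a1 cells (2530 to 3499), so their lower share is also a lower count of member UMIs per cell.

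Shares sum to a whole, so the most abundant other genes of a gate are given beside them. The 10 most abundant non-members took 27.1% to 38.4% of UMIs in the S100a8 gate, led by S100a9, S100a8 and Tmsb4x. They took 8.65% to 9.80% in the Ms4a1 gate, 7.52% to 8.32% in the Cd3e gate, 10.98% to 11.97% in the Miox gate and 12.1% to 16.5% in the Slc12a3 gate. The part these genes play in the members' shares was not tested.

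Each gate was then tested against the mean of the other 7, with edgeR's quasi-likelihood test on summed counts, the mouse as a block and Benjamini-Hochberg adjustment over 10328 genes at 0.05. Of the members, 81 were tested, and Rpl10l (4 UMIs in all kept cells) and Rpl39l (21 UMIs), paralogs of Rpl10 and Rpl39 known from testis, were too low. In the Ms4a1 gate 77 of 81 members were higher, against 26.3% of all genes, and 2 were lower, against 20.3% of all genes. The members' median log2 difference was 1.23, beside −0.01 for all genes. In the Cd3e gate 77 were higher (28.4% of all genes) and 2 lower (22.5% of all genes), with a median of 1.35 beside −0.02.

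In the Slc12a3 gate 79 of 81 members were lower, against 28.8% of all genes, and 2 were higher, against 35.7%. The median log2 difference was −1.74, beside 0.04 for all genes. In the S100a8 gate 76 were lower (23.9% of all genes) and 2 higher (22.9%), with a median of −1.03 beside −0.25. The Slc12a3 median was thus further from zero than the S100a8 median in this fit, while scaling by library size alone gave −1.33 and −1.49, so the order of these gates depends on the scaling. That scaling also moved the median of all genes, to −0.75 in the S100a8 gate, 0.45 in the Slc12a3 gate and 0.39 in the Atp6v1g3 gate.

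The other gates were less uniform. In the Jchain gate 45 members were higher, against 12.0% of all genes, and 0 lower, against 6.49%, where DESeq2 called 70 higher and 0 lower. Of all 81, 63 had an unadjusted p under 0.05, against 2995 of the 10328 genes. Leaving out saline 2 left 17 called, and leaving out FMT 1 or FMT 2 left 21. Restricting every gate to certain cells was an alternative chosen after seeing the data, as are the further-marker values below. These cells held a further marker of their gate, and its marker list summed higher in them than every other gate's list. The restriction left the Jchain gate with FMT 1 alone (21 cells). The members' median there was 0.34 beside −0.55 for all genes, where the main fit gave 0.49 beside −0.15. In the Atp6v1g3 gate 50 were lower (17.9% of all genes) and 2 higher (29.4%), but library size scaling gave 10 lower and 5 higher, and leaving out FMT 1 left 20 lower. In the Miox gate 23 were lower (26.8% of all genes), close to the background, and 11 higher (44.0%). Library size scaling gave 52 lower and 4 higher in that gate. Leaving out saline 2 left 11 lower there, and leaving out FMT 1 left 15. In the Ear2 gate 19 were higher (22.0% of all genes) and 2 lower (15.7%), close to the background in the first case, and scaling by relative log expression gave 16 higher and 6 lower. Library size scaling gave 29 higher and 1 lower there, and leaving out FMT 1 left 8 higher. With the gate at 1 UMI there were 8 higher and 15 lower in the Ear2 gate, and the median turned from 0.18 to −0.09.

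**Figure D2:**
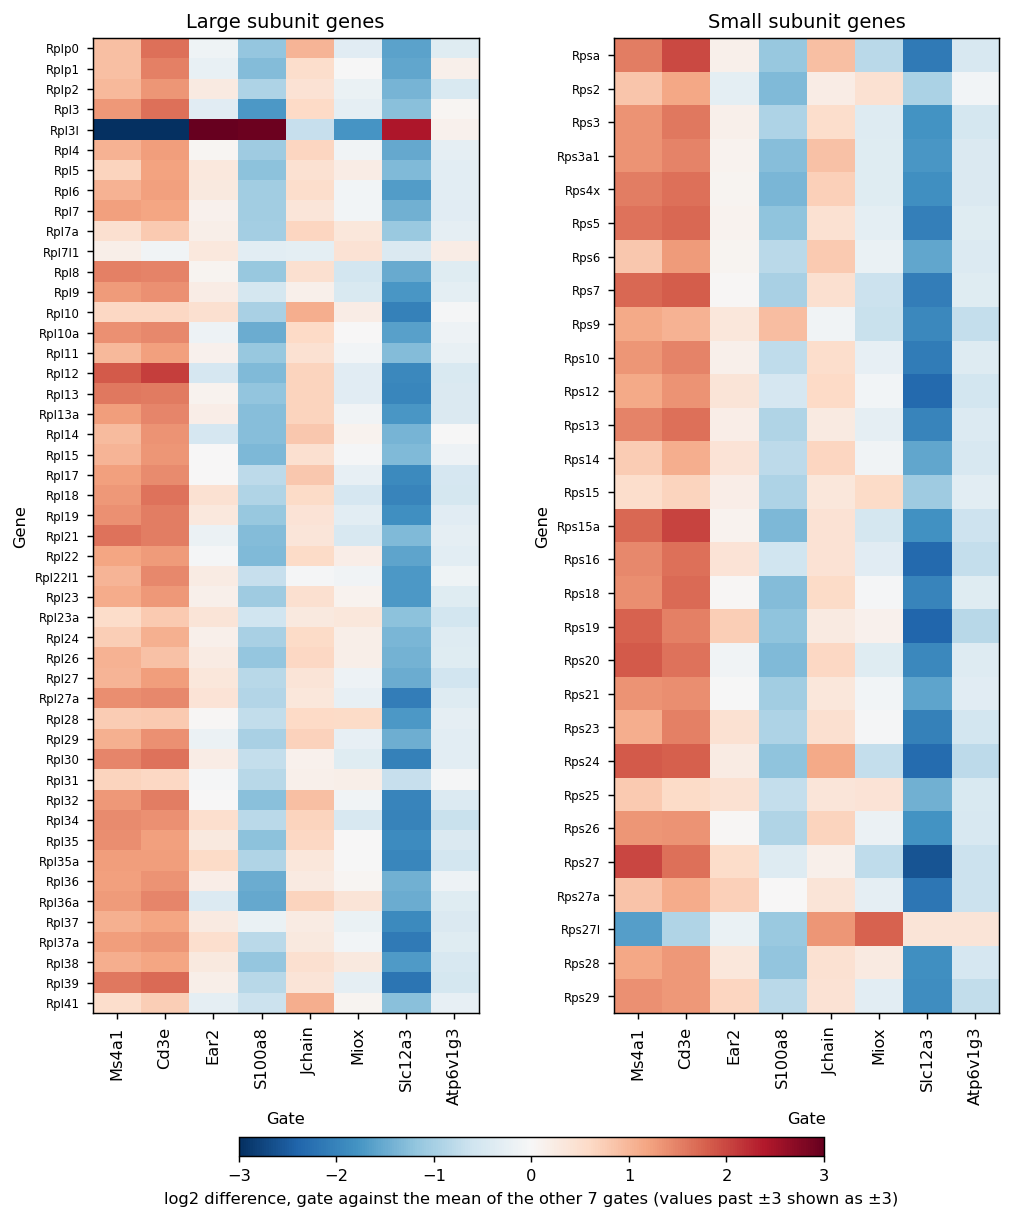
Log2 difference of tested members, a few left out (rows, large subunit left and small subunit right) in each gate (columns) against the mean of the other 7 gates, red higher and blue lower, values past the scale shown at its end. The Ms4a1 and Cd3e columns are red and the Slc12a3 column blue along nearly the whole length, and Rps27l, Rpl3l and Rps9 break the pattern.

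Levels below are in CPM (mean ± SD over mice), and differences are log2 ± SE with the adjusted p of the same edgeR fit. The acidic stalk of the large subunit, which recruits elongation factors, is made by Rplp0, Rplp1 and Rplp2. Rplp0 stood at 7385 ± 919 in the Cd3e gate (n = 5), 4791 ± 194 in the Ms4a1 gate and 5165 ± 626 in the Jchain gate (n = 3). It stood at 2069.97 ± 202 in the Miox gate and 1354 ± 235 in the Slc12a3 gate. All 3 stalk genes were higher in the Cd3e gate, by 1.66 ± 0.13 for Rplp0 (adjusted p = 3.36e-14), 1.52 ± 0.13 for Rplp1 (adjusted p = 1.63e-13) and 1.32 ± 0.12 for Rplp2 (adjusted p = 2.41e-12).

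Rpsa, a small subunit protein also known as the laminin receptor, showed one of the wider ranges. In the Cd3e gate it stood at 7424 and 8631 in saline 1 and 2, and 9575, 9564 and 8614 in FMT 1 to 3. In the Slc12a3 gate it stood at 847 and 922 in saline and 968, 975 and 1199 in FMT, so every Slc12a3 value lay below every Cd3e value. The log2 difference against the other gates was 1.97 ± 0.15 in the Cd3e gate (adjusted p = 4.77e-15), −2.11 ± 0.20 in the Slc12a3 gate (adjusted p = 2.97e-12) and −0.80 ± 0.18 in the Miox gate (adjusted p = 0.000128).

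Rpl5 and Rpl11 form, with 5S RNA, the particle that binds Mdm2 when ribosome assembly fails. Both were higher in lymphocytes, Rpl5 by 1.20 ± 0.11 in the Cd3e gate (adjusted p = 9.1e-12) and Rpl11 by 1.22 ± 0.11 (adjusted p = 2.59e-12). Both were lower in the Slc12a3 gate, by −1.33 ± 0.14 (adjusted p = 5.22e-11) and −1.30 ± 0.14 (adjusted p = 5.44e-11). In the Miox gate neither passed the test, at 0.22 ± 0.12 (adjusted p = 0.105) and −0.09 ± 0.12 (adjusted p = 0.548).

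Rps6, whose protein is phosphorylated by S6 kinase, was higher in the Cd3e gate by 1.29 ± 0.13 (adjusted p = 2.05e-11) and lower in the Slc12a3 gate by −1.56 ± 0.16 (adjusted p = 2.88e-11). Rpl13a, linked to translational silencing after interferon-gamma in human myeloid cells, was higher by 1.47 ± 0.12 in the Cd3e gate (adjusted p = 1.59e-13) and lower by −1.29 ± 0.16 in the S100a8 gate (adjusted p = 9.19e-09). Rpl38, known for a role in translating Hox mRNAs in mouse embryos, stood at 4745 ± 511 in the Ms4a1 gate and 1137 ± 179 in the Slc12a3 gate, with n = 5 in both. Its log2 difference was 1.10 ± 0.12 (adjusted p = 2.72e-10) and −1.69 ± 0.15 (adjusted p = 4.44e-13).

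The largest rise in B cells among members with at least 30 CPM was that of Rps27, a small subunit protein with a zinc finger. In the Ms4a1 gate Rps27 stood at 12306 and 10975 in saline, and 9294, 10451 and 11885 in FMT. In the Slc12a3 gate it stood at 862 and 809 in saline, and 829, 667 and 1265 in FMT. The log2 difference was 2.01 ± 0.11 in the Ms4a1 gate (adjusted p = 4.94e-19) and −2.59 ± 0.16 in the Slc12a3 gate (adjusted p = 6.5e-18), the largest fall there. Rps20 and Rps24 followed in the Ms4a1 gate, at 1.85 ± 0.15 (adjusted p = 1.57e-13) and 1.84 ± 0.13 (adjusted p = 6.09e-16). In the Cd3e gate Rpl12 led, with 2.08 ± 0.15 (adjusted p = 1.84e-15), followed by Rps15a with 2.02 ± 0.13 (adjusted p = 1.43e-16). In the Slc12a3 gate Rps19 followed Rps27, at −2.38 ± 0.21 (adjusted p = 5.57e-13).

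Rps27l, the paralog of Rps27 and a known p53 target, went the other way. In the Miox gate Rps27l stood at 891 and 769 CPM in saline and 813, 800.4 and 863 in FMT. In the Ms4a1 gate it stood at 157 and 92.6 in saline and 99.6, 126 and 82.4 in FMT, below every Miox value. Rps27l was higher in the Miox gate by 1.77 ± 0.10 (adjusted p = 4.23e-19), in the Jchain gate by 1.32 ± 0.15 (adjusted p = 5.32e-09), in the Slc12a3 gate by 0.39 ± 0.12 (adjusted p = 0.00304) and in the Atp6v1g3 gate by 0.39 ± 0.12 (adjusted p = 0.00711). It was lower in the Ms4a1 gate by −1.66 ± 0.14 (adjusted p = 5.26e-13), in the Cd3e gate by −0.90 ± 0.13 (adjusted p = 2.41e-07) and in the S100a8 gate by −1.12 ± 0.15 (adjusted p = 6.37e-08). These directions held under all 5 scalings and tests compared, edgeR with 4 scalings and DESeq2. For the Jchain gate alone, a looser gate of 1 UMI gave −0.02.

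Set against its paralog, Rps27l had 0.693 to 1.28 UMIs per 100 of Rps27 in the Ms4a1 gate. It had 1.45 to 2.91 in the Cd3e gate, 19.1 to 22.4 in the Jchain gate, 34.2 to 54.1 in the Miox gate and 45.9 to 74.3 in the Slc12a3 gate, over the mice of each gate. UMIs are not divided by transcript length, so the ratio is read between gates only. Both the pairs that follow moved less. Rpl22l1 had 27.4 to 46.3 UMIs per 100 of Rpl22, whose loss is known to block T cell development, in the Ms4a1 gate, and 29.3 to 37.3 in the Miox gate. Rpl7l1 had 1.41 to 2.69 UMIs per 100 of Rpl7 in the Ms4a1 gate and 6.69 to 10.99 in the Slc12a3 gate. Its own level had no call in the Ms4a1, Cd3e, Ear2, S100a8, Jchain and Atp6v1g3 gates.

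**Figure D3:**
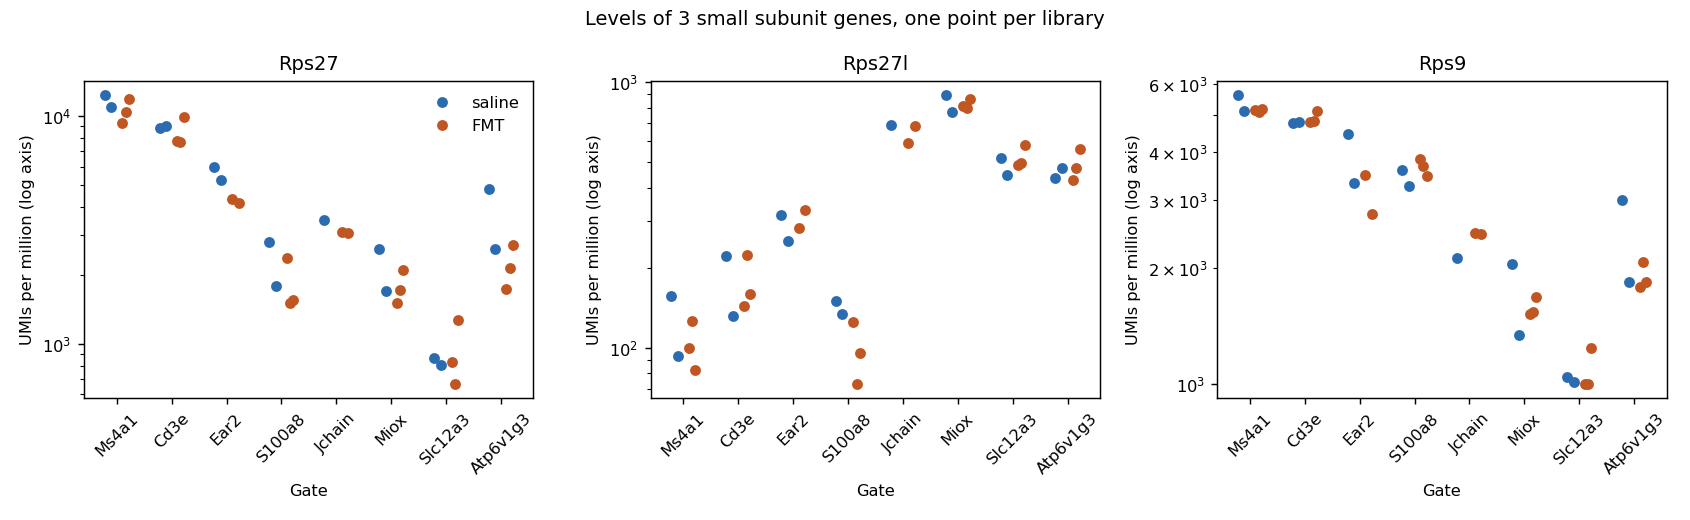
Levels of Rps27, Rps27l and Rps9 (vertical axes, CPM, log scale) in 8 gates (horizontal axes), 1 point per library. Rps27 is highest and Rps27l near its lowest in the Ms4a1 gate, and Rps9 stays at 3259.7 to 3833 in the S100a8 gate.

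In neutrophils, Rps9 and Rpl3l were the members that rose. Rps9 is a small subunit protein near the decoding site. In the S100a8 gate it stood at 3598 and 3259.7 CPM in saline and 3833, 3683 and 3467 in FMT, a narrow range with overlapping groups. The Miox gate had 1340.2 to 2044 and the Slc12a3 gate 1000.4 to 1243, all below. The Ms4a1 gate, at 5086 to 5609, and the Cd3e gate, at 4757 to 5109, lay above it in every mouse, as did the Ear2 gate in both saline mice (4459 and 3321). Rps9 was higher in the S100a8 gate than in the mean of the other gates by 0.94 ± 0.11 (adjusted p = 1.51e-09), while 76 members were lower, and library size scaling gave 0.48. Rps9 took a mean of 5.40% of the members' UMIs there, against 1.06% to 1.68% in the other 7 gates. Rps27a, which encodes ubiquitin fused to a small subunit protein, took 3.75% against 1.55% to 2.67%, with a log2 difference of 0.01 ± 0.12 (adjusted p = 1). The largest falls in the S100a8 gate were those of Rpl3, by −1.73 ± 0.19 (adjusted p = 5.32e-10), Rpl36a, by −1.54 ± 0.19 (adjusted p = 7.34e-09), and Rpl36, by −1.50 ± 0.15 (adjusted p = 3.65e-11).

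In the Miox gate Rpl28, a large subunit protein, was higher, by 0.57 ± 0.12 (adjusted p = 7.23e-05), whereas Rpsa, Rps27 and Rps24 had the largest falls among members with a mean of at least 30 CPM.

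In the Jchain gate the members that rose most after Rps27l were Rps24, by 1.13 ± 0.17 (adjusted p = 1.77e-06), and Rpl10, by 1.09 ± 0.15 (adjusted p = 2.83e-07). Rpl10 joins the large subunit in a late step of its assembly. Rpl10 stood at 3142 in saline 2 and 2719 and 2737 in FMT 1 and 2. In the Ear2 gate Rps19 and Rps27a were higher, by 0.75 ± 0.18 (adjusted p = 0.00105) and 0.71 ± 0.13 (adjusted p = 1.67e-05). Rpl14, at −0.52 ± 0.16 (adjusted p = 0.00911), and Rpl12, at −0.51 ± 0.21 (adjusted p = 0.0491), were the 2 members lower there. In the Atp6v1g3 gate Rps19, Rps24 and Rps29 fell most, by −0.83 ± 0.19 (adjusted p = 0.000331), −0.78 ± 0.16 (adjusted p = 6.42e-05) and −0.74 ± 0.15 (adjusted p = 8.34e-05).

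Rpl3l, the paralog of Rpl3 known from heart and skeletal muscle, had few UMIs. Over the libraries of a gate it had 139 UMIs in the Ear2 gate, 100 in the Slc12a3 gate, 83 in the Miox gate, 27 in the S100a8 gate and 1 in each of the Ms4a1, Cd3e and Jchain gates. This was 71.7 to 102 CPM in the Ear2 gate, 15.6 to 25.6 in the Slc12a3 gate and 0.707 to 1.77 in the Miox gate. Rpl3l lies on chromosome 17, plus strand, at 24727820 to 24736143 (mm10), and Msrb1, a methionine sulfoxide reductase gene, begins 498 bases further on the same strand. Msrb1 had 1408 to 1767 CPM in the Ear2 gate and 2327 to 4207 in the S100a8 gate, above 48.1 to 57.3 in the Ms4a1 gate. The Miox gate, with less Rpl3l than the Slc12a3 gate, had more Msrb1, at 271 to 369 CPM against 210 to 252. Whether reads of the neighbouring gene were counted as Rpl3l was not tested.

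The balance between subunits also varied between gates. The large subunit's genes took 52.2% ± 0.18 of member UMIs in the Ms4a1 gate (SD, n = 5) and 53.0% ± 0.44 in the Cd3e gate. They took 57.4% ± 0.30 in the Miox gate, 58.3% ± 0.43 in the Slc12a3 gate and 57.9% ± 1.00 in the Atp6v1g3 gate, and the lowest of these 15 epithelial values (56.1%) lay above the highest of the 10 lymphocyte values (53.4%). The myeloid gates were near the lymphocytes, at 53.4% ± 0.65 for Ear2 (n = 4) and 53.1% ± 1.06 for S100a8. The Jchain gate lay between, at 55.5% ± 0.39 (n = 3), with a range of 55.2% to 55.98%. In the gate fit the small subunit median exceeded the large subunit median in the Ms4a1 gate (1.34 against 1.12) and lay below it in the Slc12a3 gate (−1.90 against −1.61).

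Within the S100a8 gate, cells were split by Camp and Ngp, granule genes of immature neutrophils. Cells with Camp or Ngp had a share of 6.55%, 4.72% and 4.24% in saline 1, saline 2 and FMT 3. Cells with neither had 13.5%, 12.3% and 6.64%, higher in these 3 mice, which had at least 20 cells of both kinds. The median cell with Camp or Ngp had 4.39%, 4.29% and 3.18%, and the median cell with neither had 6.11%, 5.51% and 4.25%. In FMT 1 the order was the opposite, with 15.1% in 6 cells with Camp or Ngp and 4.53% in 30 cells with neither (medians 4.69% and 4.27%). In FMT 2, 11 cells with Camp or Ngp had 3.44% and 39 with neither had 4.48%. Cells with neither can include other cell types, since 82.8% of saline 1's gate cells held a further neutrophil marker, against 97.1% to 100% in the other libraries. The proximal tubule states could not be compared, since too few cells carried Slc7a13.

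**Figure D4:**
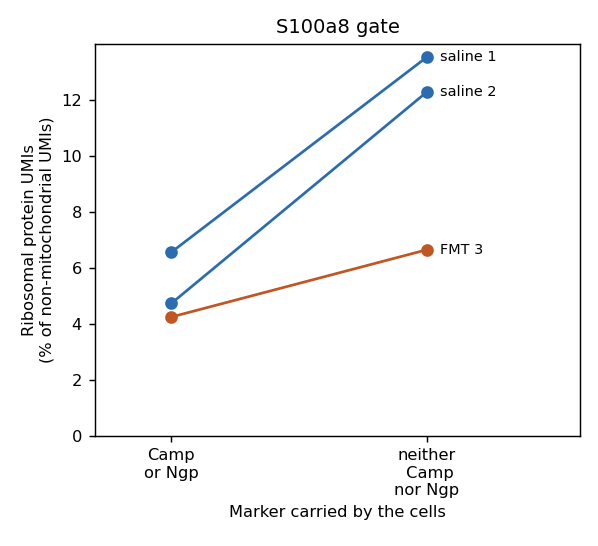
Members' share (vertical axis, percent of non-mitochondrial UMIs) in S100a8 gate cells split by Camp and Ngp (horizontal axis), 1 line per library with at least 20 cells of both kinds, saline blue and FMT orange. FMT 1 and 2, with fewer cells, are not drawn. All 3 lines rise from cells with Camp or Ngp (4.24% to 6.55%) to cells with neither (6.64% to 13.5%).

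Genes of the same machinery were read as lists beside the members, by counts in the same fit. Of 20 other genes known to start with a TOP tract, 18 were higher (26.3% of all genes) and 1 lower (20.3%) in the Ms4a1 gate, 20 higher in the Cd3e gate (28.4%) and 19 lower in the Slc12a3 gate (28.8%). Their medians were 0.80, 1.06 and −1.22. Eef1b2, a subunit of the factor that reloads elongation factor 1A, was higher in the Cd3e gate by 1.56 ± 0.11 (adjusted p = 2.2e-15) and lower in the Slc12a3 gate by −1.69 ± 0.15 (adjusted p = 1.9e-13). Tpt1, which encodes a translationally controlled protein, was higher in the Cd3e gate by 1.12 ± 0.10 (adjusted p = 3.39e-12).

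Mitochondrial ribosomal protein genes did not share this order. Of 76 tested, 69 were higher in the Miox gate, against 44.0% of all genes, with a median of 0.93. In the Slc12a3 gate 58 were higher (35.7% of all genes, median 0.56), and in the Atp6v1g3 gate 56 (29.4%, median 0.60). In the Ms4a1 gate 34 of 76 were lower (20.3% of all genes, median −0.34), and in the S100a8 gate 67 were lower (23.9%, median −1.31). The Slc12a3 gate thus had 79 of 81 cytosolic members lower and 58 of 76 mitochondrial ones higher in one fit.

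Of 39 ribosome assembly and rRNA synthesis genes, 20 were higher in the Ms4a1 gate (26.3% of all genes) and 27 in the Cd3e gate (28.4%), and 28 were lower in the S100a8 gate (23.9%). In the Miox gate 17 were higher, near the background of 44.0%. Npm1, nucleophosmin, was higher in the Cd3e gate by 1.61 ± 0.15 (adjusted p = 3.09e-12) and in the Miox gate by 0.68 ± 0.16 (adjusted p = 0.000175). Of 16 genes of mTORC1 and cap control, 12 were higher in the Miox gate (44.0% of all genes) and 7 lower in the Cd3e gate (22.5%). Myc, a transcription factor that drives ribosome production, was higher in the Ms4a1 gate by 2.68 ± 0.29 (adjusted p = 1.77e-10) and in the Cd3e gate by 2.40 ± 0.27 (adjusted p = 6.83e-10). Eif4ebp1, a repressor of cap-dependent translation, was lower in the Cd3e gate by −1.68 ± 0.19 (adjusted p = 7.55e-10) and higher in the S100a8 gate by 2.69 ± 0.15 (adjusted p = 9.83e-19).

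Over the 37 sums, the log2 level of the summed members was followed closely by Eef1b2 (Pearson r = 0.976), Acp5 (0.9503), Gnb2l1 (0.932), Eif3f (0.932), Snrpg (0.925) and Trmt112 (0.916) among 4488 other genes with a mean of at least 30 CPM. The sums come from 5 mice and share libraries, so r is a description without a p. Of the 80 members at that level, 66 had r above 0.9 with the sum they belong to, against 15 of the other genes. The lowest were Rps27l (−0.24) and Rpl7l1 (0.20).

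FMT was compared with saline within each gate, the contrast the study's groups imply, with edgeR's quasi-likelihood test adjusted over all genes of the gate. No member passed in any of the 7 gates tested, by edgeR or by DESeq2. Fewer cells of a state and less RNA per cell cannot be told apart in such sums. The share of all genes called in either direction was 0.0156% in the Ms4a1 gate, 0.0% in the Cd3e gate, 0.223% in the Ear2 gate, 0.357% in the S100a8 gate, 0.0804% in the Miox gate, 0.185% in the Slc12a3 gate and 0.0% in the Atp6v1g3 gate, so calls were rare for any gene. The Jchain gate had 1 saline library with enough cells. A fit that rests on that library assumes that it varies like the FMT libraries. In that fit the members' median log2 difference was −0.17, beside 0.03 for all genes. With the Jchain gate at 1 UMI, 0 of 79 members were called, against 6 higher and 6 lower of 1713 genes.

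In lymphocytes the groups differed little. The share in the Ms4a1 gate was 37.0% ± 0.16 in saline (SD, n = 2) and 35.9% ± 0.61 in FMT (n = 3), without overlap. Members split into 31 with higher and 49 with lower estimates and a median log2 difference of −0.04, beside 0.00 for all genes, which was 0.02 without saline 2. At an unadjusted p under 0.05 there were 4 of 80 members by edgeR, against 358 of 6430 genes. By DESeq2 there were 1 of 83, against 102 of 13390. With 1 FMT library left out, 0 to 4 members were at that p by edgeR. The members' median was −0.02 without saline 1. Rpl23a had the smallest p among lower members, at −0.47 ± 0.19 (adjusted p = 0.878), and Rpsa among higher ones, at 0.18 ± 0.10 (adjusted p = 0.913). Groups without overlap were found for 6 members with FMT higher (9.91% of all genes) and 8 with FMT lower (10.8% of all genes), near the background.

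In the Cd3e gate the share was 37.6% ± 2.03 in saline and 38.5% ± 0.59 in FMT, with overlap. The members' median was 0.08 beside −0.02, and 0.19 without saline 2. Of 80 members, 4 had an unadjusted p under 0.05 by edgeR, against 494 of 7990 genes. By DESeq2, 2 of 82 did, against 122 of 14207. With 1 FMT library left out, 0 to 5 members were at that p by edgeR. The members' median was 0.07 without saline 1. Rps4x, the X-linked Rps4, had 0.32 ± 0.12 (adjusted p = 0.797) and Rpl23a −0.42 ± 0.20 (adjusted p = 0.797). FMT lay above saline without overlap for 19 of 80 members (8.06% of all genes) and below for 2 (15% of all genes).

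In neutrophils and monocytes the estimates leaned to lower values in FMT without passing the test. In the S100a8 gate the share was 9.32% ± 1.14 in saline and 6.09% ± 2.23 in FMT, and FMT 1 (8.501%) lay just under saline 2 (8.519%). Of 80 members 79 had a lower estimate, with a median of −0.70 beside −0.06. At an unadjusted p under 0.05 there were 34 of 80 members by edgeR, against 371 of 3361 genes. By DESeq2 there were 27 of 81, against 213 of 12605. The edgeR count was 15 without FMT 2 (294 of 3427 genes), 20 without FMT 3 (319 of 2442) and 58 without FMT 1 (363 of 3397). The members' median was −0.43 without FMT 2 and −0.55 without saline 1. Rps15 had the smallest p, at −1.28 ± 0.29 (adjusted p = 0.132), with 313 and 259 CPM in saline and 125, 80.4 and 131 in FMT. Rps9 had the smallest p of the members estimated higher, at 0.10 ± 0.27 (adjusted p = 0.907). Groups without overlap had FMT lower for 37 members (15.9% of all genes) and FMT higher for 0 (12.5% of all genes).

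These S100a8 values moved with other measures. Red cell markers in that gate came to 14089 and 102 CPM in saline 1 and 2 and 0, 117 and 2536 in FMT 1 to 3. B cell markers came to 503 and 151 CPM in saline 1 and 2 and 407, 7.31 and 12.6 in FMT 1 to 3. S100a8 and S100a9 together took 21.9% and 21.4% of UMIs in saline and 16.4%, 25.3% and 27.6% in FMT. Their part in the result was not tested. In cells with further neutrophil markers, whose neutrophil list also summed highest, the share was 6.89% and 6.88% in saline. It was 8.38%, 4.09% and 5.48% in FMT, so the groups overlapped. Leaving out cells of very high UMI count instead gave 9 of 79 members called lower, against 22 of 2143 genes. Among these members, named after their values were seen, were Rpsa at −2.04 ± 0.33 (adjusted p = 0.00739), Rpl10a and Rpl32.

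In the Ear2 gate the share was 22.5% ± 1.55 in saline and 18.9% ± 1.52 in FMT, with n = 2 in each. Of 81 members 78 had a lower estimate, with a median of −0.30 beside −0.01. No member had an unadjusted p under 0.05 by edgeR, against 196 of 3133 genes. By DESeq2, 4 of 82 did, against 89 of 12649. The members' median was −0.46 without FMT 1 and −0.31 without saline 2. Rpl36a had −0.51 ± 0.27 (adjusted p = 0.840) and Rpl3 0.03 ± 0.30 (adjusted p = 0.993). FMT lay below saline without overlap for 40 members (13.7% of all genes) and above for 0 (21.7% of all genes). Mitochondrial UMIs of this gate were 0.985% and 11.4% in saline and 3.64% and 3.05% in FMT.

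In the Atp6v1g3 gate the share was 18.4% ± 4.29 in saline and 14.1% ± 1.11 in FMT, without overlap. All 80 members tested had a lower estimate, with a median of −0.49 beside −0.01, which was −0.18 without saline 1. Without saline 2 the median was −0.74. At an unadjusted p under 0.05 there were 17 of 80 members by edgeR, against 193 of 5107 genes. By DESeq2 there were 12 of 82, against 83 of 14216. The edgeR count was 5 without FMT 1 (254 of 5265 genes), 7 without FMT 2 (127 of 5273) and 2 without FMT 3 (165 of 4975). FMT lay below saline without overlap for 32 members (5.84% of all genes) and above for 0 (14.3% of all genes). The median cell had 13.9% and 12.4% in saline and 12.6%, 12.0% and 12.4% in FMT, and these overlap. In saline 1, 16.7% of the gate's cells had a share over 25%, against 2.80% to 7.45% in the other libraries. B cell markers there were 1689 CPM and red cell markers 8358, the highest values of the gate. The medians over its libraries were 1298 and 238. Among cells with further intercalated cell markers, whose intercalated cell list also summed highest, the share was 13.7% and 11.8% in saline. In FMT it was 11.2%, 10.97% and 12.8%.

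In the tubule gates the groups overlapped. The Miox share was 14.1% ± 2.80 in saline and 13.5% ± 0.88 in FMT, with 43 members estimated higher and 38 lower and a median of 0.01 beside 0.00. That median was 0.31 without saline 1 and −0.21 without saline 2. It was 0.08 without FMT 1, 0.06 without FMT 2 and −0.06 without FMT 3, so its sign depended on the libraries used. Rpl23a had −0.39 ± 0.15 (adjusted p = 0.393) and Rpl7l1 0.28 ± 0.15 (adjusted p = 0.513). By each tool 1 member had an unadjusted p under 0.05. Genes at that p were 1426 of 12434 by edgeR and 1129 of 17959 by DESeq2. FMT lay above saline for 4 members (10.1% of all genes) and below for 10 (18.7% of all genes).

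The Slc12a3 share was 6.93% ± 0.02 in saline and 7.49% ± 1.04 in FMT. The median was 0.10 beside 0.01, with 66 members estimated higher and 15 lower, and turned to −0.15 with the gate at 1 UMI. Without FMT 3 it was 0.00, with 41 members higher and 40 lower, and the difference in share was −0.03 percentage points. By edgeR and by DESeq2, 0 members had an unadjusted p under 0.05, against 400 of 8126 and 132 of 14675 genes. Rpl7l1 had 0.39 ± 0.25 (adjusted p = 0.999) and Rpl12 −0.15 ± 0.19 (adjusted p = 0.999). FMT lay above saline for 11 members (8.12% of all genes) and below for 0 (9.93% of all genes).

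**Figure D5:**
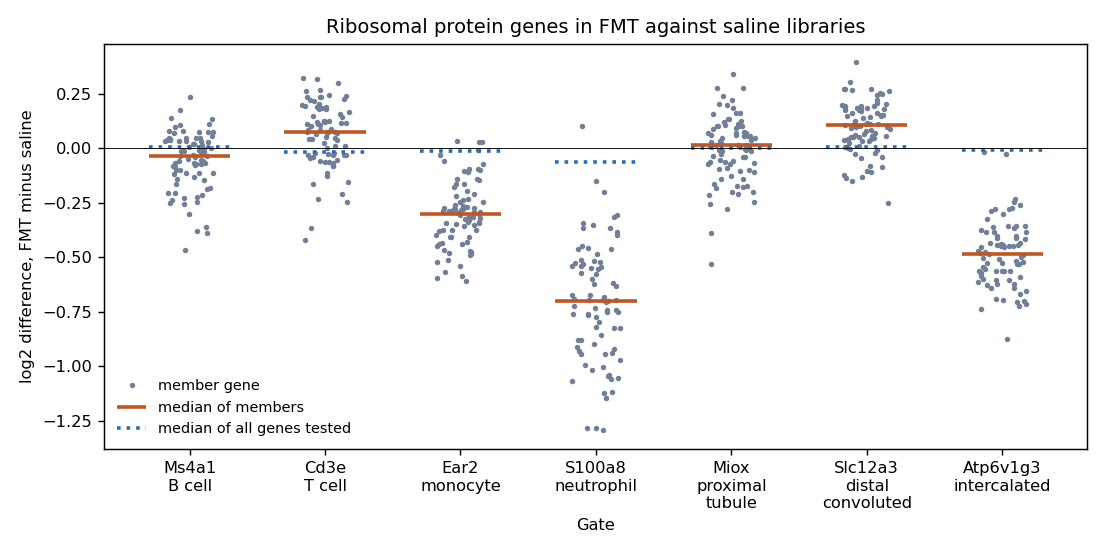
Log2 difference of each tested member, FMT minus saline (vertical axis), in 7 gates (horizontal axis), with the median of the members (orange line) and of all genes tested (dotted blue line). The members' medians are −0.70 in the S100a8 gate, −0.49 in the Atp6v1g3 gate and −0.30 in the Ear2 gate, and −0.04 to 0.10 elsewhere, and no point passed the test.

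A few members followed 1 mouse rather than the group, a pattern chosen after the values were seen. Among sums of at least 20 cells, Rplp1, Rps12, Rps21, Rps25 and Rpl23a were highest in saline 2 in all 8 gates. The Jchain gate has 3 such sums and the Ear2 gate 4. No other library held this place for any member. In the Ms4a1 gate Rplp1 stood at 2997 in saline 1, 4662 in saline 2 and 3348, 3199.7 and 3030.4 in FMT 1 to 3. Rps21 stood there at 3075 in saline 1, 5704 in saline 2 and 3902, 3583 and 3152 in FMT. Without saline 1, leaving saline 2 alone, the log2 difference in the Ms4a1 gate was −0.69 for Rps21, −0.64 for Rps12 and −0.55 for Rplp1.

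Rpl23a and Rps15 had a lower estimate in FMT in all 7 gates, and the groups did not overlap for Rpl23a in 5 gates and for Rps15 in 4. In the Miox gate Rpl23a stood at 304 and 382 in saline and 265, 238 and 242 in FMT. None of these passed the test, and gates of 1 mouse are not independent. Ribosomal protein genes have many near-identical processed pseudogenes, so reads shared with copies may be missing from their counts.

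The FMT effect itself was compared between gates by an interaction term. No member passed for B cells against proximal tubule (0.831% of all genes), T cells against proximal tubule (0.353%) or B cells against T cells (0.285%). By edgeR, 0 members had an unadjusted p under 0.05 in any of the 3. Genes at that p were 816 of 12036, 669 of 12449 and 478 of 7359. DESeq2 was not run on this term. The members' medians were −0.12, 0.07 and −0.12.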

How the data were processed

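The authors deposited, per the file headers, whole-number UMI counts per gene and cell barcode for 5 kidney libraries. Per the submitters' processing notes, reads were processed by Cell Ranger 2.1.1 on mm10, whereas version 4.0.0 stands in the matrix headers. The labels' protocol names a kit for bulk libraries, which droplet count matrices contradict. Library totals were 15333445 to 45309178 UMIs. The members and gene lists were chosen with earlier results of these data known.

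Cells needed at least 200 genes and under 50% mitochondrial UMIs. Gates needed 2 UMIs of 1 marker and at most 1 of each other marker, which leaves out 1348 cells with the markers of 2 or more gates. No doublet caller was run, and an alternative dropped cells above 3 times their gate's median UMI count. Counts were summed per gate and library (at least 20 cells) and tested with edgeR 4.0.16 (R 4.3.3), using TMM scaling, filterByExpr and the quasi-likelihood test, with Benjamini-Hochberg adjustment at 0.05 over all genes, after a check on simulated data. FMT was tested against saline in each gate alone. Gates were tested in a fit over all 37 sums with library as a term. A standard error is the size of the log2 difference divided by the root of F. DESeq2 1.42.0, other scalings, filters and gates, and leaving out each library were alternatives. Tables were made with Python 3.11.15, pandas 2.3.3, numpy 2.4.6, scipy 1.17.1 and matplotlib 3.10.9.

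Named genes were those with the smallest p per direction for FMT, up to 3 called members per direction and gate with a mean of at least 30 CPM, a fixed roster of stalk, checkpoint, signalling and paralog genes, the 8 genes most correlated with the members, and the pathway lists. Exceptions are marked in the text, and some items are not reported here. Intervals cover counting error only. Where nothing says that libraries came from separate litters or days, p-values measure the spread between these libraries.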

Additional observations from a re-analysis of the deposited data

How the results depend on the processing

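Of 428 alternatives for summary results, 361 stayed within the limits set and 67 moved, and the cause was not tested. Replicate numbers are shared by the groups, and deviations of same-numbered libraries correlated at −0.196 to 0.127. With so few saline libraries, whose deviations mirror each other, this cannot decide whether the numbers pair the mice. With the replicate block, 5 of 80 members were called lower in the S100a8 gate (57 of 3361 genes) and 0 in the other 6 gates. In the S100a8 gate 3 of 81 were called lower without the low count filter (66 of 12605 genes). Without high UMI cells 9 of 79 were (22 of 2143 genes). Leaving out an FMT replicate gave 0 calls in the Ms4a1 gate. Leaving out a saline replicate leaves 1 saline library, so calls from those fits are not given.

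For gates against the others, members called higher ranged over left-out replicates from 8 to 22 in Ear2 and 17 to 46 in Jchain. Members called lower ranged from 20 to 56 in Atp6v1g3, 11 to 23 in Miox, and 1 to 2 in each of Ms4a1, Cd3e and Ear2. With library size only, higher and lower calls were 5 and 10 in Atp6v1g3, 29 and 1 in Ear2, and 4 and 52 in Miox. RLE scaling gave 6 lower in Ear2. DESeq2 gave 9 lower in Ear2, 37 lower in Miox and 70 higher in Jchain. Without the low count filter there were 1 higher in Atp6v1g3, 29 higher in Jchain and 15 lower in Miox. The 1 UMI gate gave 20 lower in Atp6v1g3, 8 higher and 15 lower in Ear2, 41 lower in Miox and 1 lower in Ms4a1. Companion markers, the restriction to further markers and the highest list sum described above, were chosen after seeing the data. They gave 1 lower in each of Cd3e, Ear2 and Ms4a1, and 14 lower in Miox. They left the Jchain gate with FMT 1 alone, where the members' median was 0.34.

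The mean share with the 1 UMI gate was 19.6% in Atp6v1g3, 28.5% in Jchain, 12.0% in S100a8 and 8.65% in Slc12a3. With companion markers it was 12.1% in Atp6v1g3 and, from FMT 1 alone, 21.4% in Jchain. By the median cell it was 35.6% in Cd3e, 20.5% in Jchain and 4.56% in S100a8. Without high UMI cells it was 19.96% in Jchain, again from FMT 1 alone.

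FMT minus saline, in percentage points, ranged over left-out replicates from −7.36 to −1.29 in Atp6v1g3, −0.57 to 2.31 in Cd3e, −2.54 to 1.42 in Miox and −0.03 to 0.93 in Slc12a3. With companion markers it was −1.08 in Atp6v1g3 and −0.90 in S100a8. By the median cell it was −0.86 in Atp6v1g3, 3.47 in Cd3e, −1.59 in Ms4a1 and −1.22 in S100a8. With the 1 UMI gate it was −0.74 in Slc12a3. Of 587 alternatives for named genes, 574 kept direction and call, 7 lost and 2 gained the call, and 4 reversed. Rps27l in the Jchain gate was −0.019 with the 1 UMI gate. For FMT against saline, Rpl3 in the Ear2 gate ranged from −0.25 to 0.22 over left-out replicates, with −0.02 without saline 2, and Rps9 in the S100a8 gate ranged from −0.017 (without saline 2) to 0.21. With 1 saline library left, the lone sample is assumed to vary like the others. The Jchain gate holds 104 cells and the Ear2 gate 433, which limits both.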
